A study of Drosophila melanogaster with 9 samples.

Results

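Insect cuticle is an extracellular coat that the epidermis secretes at its apical face, built of chitin fibres and of structural proteins that bind or surround them. Most of these proteins come from large families whose genes sit side by side in clusters, and each developmental stage (larva, pupa, adult) uses its own selection of them. The Cpr proteins carry the Rebers and Riddiford chitin-binding consensus, the Tweedle (Twdl) proteins are a separate family in which dominant mutations change the body shape of larvae and pupae, and the Lcp, Acp65A and Edg genes were named for larval, adult and ecdysone-dependent cuticle proteins. The Ccp84A genes are a further cuticle cluster. The wing disc of a wandering larva is a folded epithelium that makes pupal and later adult cuticle only after the steroid hormone ecdysone has started metamorphosis.

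The members were the rows of the gene table whose FlyBase symbol begins with Cpr and a digit, Twdl, Lcp and a digit, Ccp84A, Acp65A or Edg, whatever their values. They numbered 124 of 15682 genes, made up of 70 Cpr, 26 Twdl, 17 Lcp, 7 Ccp84A, 3 Edg and 1 Acp65A gene. The BDGP6 annotation lists 121 as protein coding and 3 (TwdlU, Lcp1Psi and Lcp65APsi) as pseudogenes.

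RNA was sequenced from wing discs of male Drosophila melanogaster larvae at the wandering stage of the third instar, grown at 25 °C, after the notum, the part that forms the back of the thorax, had been cut away. All 3 genotypes had mothers of one stock (w1118, Bx-GAL4; UAS-dicer2, Bloomington 25706), so that every library carried the GAL4 driver, also called MS1096-GAL4, and the dicer2 transgene. Fathers were OreR, a wild-type strain, or carried a UAS hairpin against the noncoding RNA CR32027, from VDRC stock 26860 (CR32027-IR1) or 103512 (CR32027-IR2). The driver acts in the wing pouch, the part of the disc that forms the wing blade, and each genotype was dissected from 30 discs. Each genotype had 3 libraries of 25070343 to 36512316 reads, and no source calls them separate crosses, so the p-values may reflect technical spread alone. Levels are RPKM, reads per kilobase of gene scaled to the depth of the library.

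CR32027 was 2.74 ± 0.495 RPKM in OreR (mean ± SD, n = 3 libraries, as for all means here), 0.905 ± 0.432 in CR32027-IR2 and 3.57 ± 0.793 in the CR32027-IR1-labelled libraries. The fall in CR32027-IR2 passed (limma, adjusted p = 0.0171), though not without OreR replicate 2 (adjusted p = 0.0778), and its exact permutation p of 0.1 is the smallest that 3 against 3 libraries can give. The targeted RNA thus gives no check of the label CR32027-IR1, and every direction given for those libraries refers to the label alone. Of 7 wing pouch markers 6 were matched, and each was at 1 RPKM or more, with sums of 59.2 to 69.6 RPKM over the 9 libraries. Markers of the notum and hinge summed to 67.0 to 88.8 RPKM, with 7 of 9 at a mean of 1 RPKM or more, so RNA of genes that mark tissue beyond the pouch was present. The sum was led by zfh2 and tsh (means of 23.4 and 23.5 RPKM), while tup (0.00461) and pnr (0.0479) were under 1 RPKM.

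Most of the structural cuticle genes were near or at zero in this tissue. In total 37 of the 124 members (29.8%) had no read in any of the 9 libraries, against 3246 of all 15682 genes (20.7%). A count of 0 in all libraries allows, at 3 reads over the 9, a level of up to 0.000618 RPKM for the longest of these genes and up to 0.0421 RPKM for the shortest, for counting error only. A further 69 were above 0 with a mean under 1 RPKM, 51 of them under 0.1 RPKM, and 15 members were seen in 1 library only. Only 18 members (14.5%) reached a mean of 1 RPKM, compared with 47.4% of all genes, and 7 reached 10 RPKM. The median mean level of the 87 detected members was 0.0547 RPKM, and that of all detected genes was 4.33 RPKM.

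**Figure D1:**
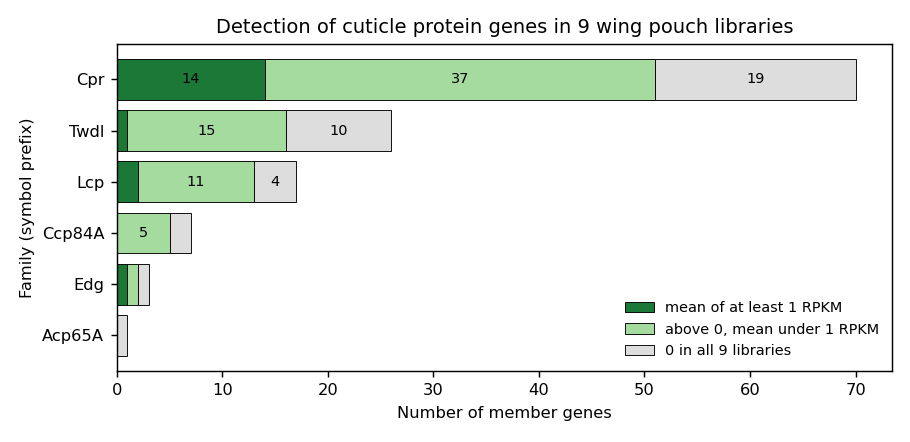
Bars give the number of member genes per family (vertical axis, by symbol prefix), split into genes at 0 RPKM in all 9 libraries, genes above 0 that averaged under 1 RPKM, and genes that averaged 1 RPKM or more. Of the 70 Cpr genes 14 reached a mean of 1 RPKM and 19 were at 0 throughout, while none of the 7 Ccp84A genes reached 1 RPKM.

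The families differed in how many of their genes were seen. Among the 70 Cpr genes 14 reached a mean of 1 RPKM, 37 were detected below it and 19 were at 0. The Tweedle family had 1 gene over 1 RPKM (TwdlE), 15 below and 10 at 0, and the Lcp genes had 2 over it (Lcp1 and Lcp4), 11 below and 4 at 0. Of the 7 Ccp84A genes, which lie next to the Antennapedia complex, 5 were detected and 2 were at 0, with a highest mean of 0.0391 RPKM. Edg78E reached 1 RPKM, Edg91 was at 0.505 RPKM, and Edg84A and Acp65Aa were at 0 in all 9 libraries.

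Genes of one cluster did not share one level. With a cluster taken as at least 3 members with gaps of at most 20 kb, 91 members fell into 15 clusters (BDGP6 coordinates throughout). The largest, with 19 Lcp65A, Cpr65A and Acp65Aa genes on arm 3L between 6130386 and 6161589, had 9 silent genes and a highest mean of 0.151 RPKM. In the cluster of 12 Tweedle genes on 3R (26619118 to 26641054) 5 were silent, and the highest mean was 0.870 RPKM for TwdlM. The 8 Cpr49A genes on 2R (12376626 to 12415170) held both extremes, with Cpr49Ac at a mean of 68.2 RPKM, the highest of all members, and Cpr49Ae and Cpr49Af at 0 in every library. Of the 4 Cpr64A genes on 3L (4207838 to 4216414) Cpr64Aa had a mean of 41.6 RPKM, while Cpr64Ab had 4 reads over all 9 libraries.

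In OreR the most abundant member was Cpr49Ac (72.5 ± 2.01 RPKM), followed by Cpr65Ec (48.0 ± 5.92), Cpr64Aa (44.4 ± 9.97), Cpr78E (39.3 ± 6.0), Cpr12A (28.1 ± 4.20) and Cpr49Ah (19.2 ± 5.15). Cpr49Ac stood above the next gene by more than the spread between libraries, whereas the OreR libraries of Cpr65Ec, Cpr64Aa and Cpr78E overlapped one another. Cpr66D (10.05 ± 1.68), Cpr35B (6.30 ± 0.677) and TwdlE (5.16 ± 1.05) came next. The deposited RPKM values divide by a length close to the whole gene, introns included, which lowers the values of genes with long introns. With exons alone as the length, Cpr49Ac had 106 in OreR and Cpr66D, whose exons fill 35.1% of its span, had 28.6. On the same exon scale TwdlE had 11.1 in OreR, 19.7 in the CR32027-IR1-labelled libraries and 63.0 in CR32027-IR2, where it came second to Cpr49Ac (91.9) among the members.

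The summed level of all 124 members was 280 to 297 RPKM in the OreR libraries, 260 to 280 in those labelled CR32027-IR1 and 256 to 305 in CR32027-IR2, so the ranges met or overlapped. Within that total the Tweedle sum was 6.69 to 8.28 RPKM in OreR, 10.4 to 11.6 in the CR32027-IR1-labelled libraries and 29.6 to 33.8 in CR32027-IR2. Without TwdlE the medians of the Tweedle sum were 2.06, 1.67 and 1.48 RPKM, in the same order. The Cpr sum was 270.1 to 288 RPKM in OreR, 241 to 267 in the CR32027-IR1-labelled libraries and 221 to 261 in CR32027-IR2. These sums were not tested.

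Changes were tested on log2(RPKM + 1) with limma, fitted to all 9 libraries and to the 7437 genes that averaged 1 RPKM or more. A gene was called at an adjusted p under 0.05. The 18 members in the fit include 5 (Cpr49Ag, Lcp4, Cpr64Ac, Cpr67Fa2 and Edg78E) whose mean reached 1 RPKM in 1 genotype only. Since the filter admitted these through the genotype where they were high, the counts of calls below are a description. Both comparisons with OreR use the same 3 OreR libraries. RNA from a whole tissue cannot tell fewer expressing cells from less RNA per cell, and this holds for every change given.

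**Figure D2:**
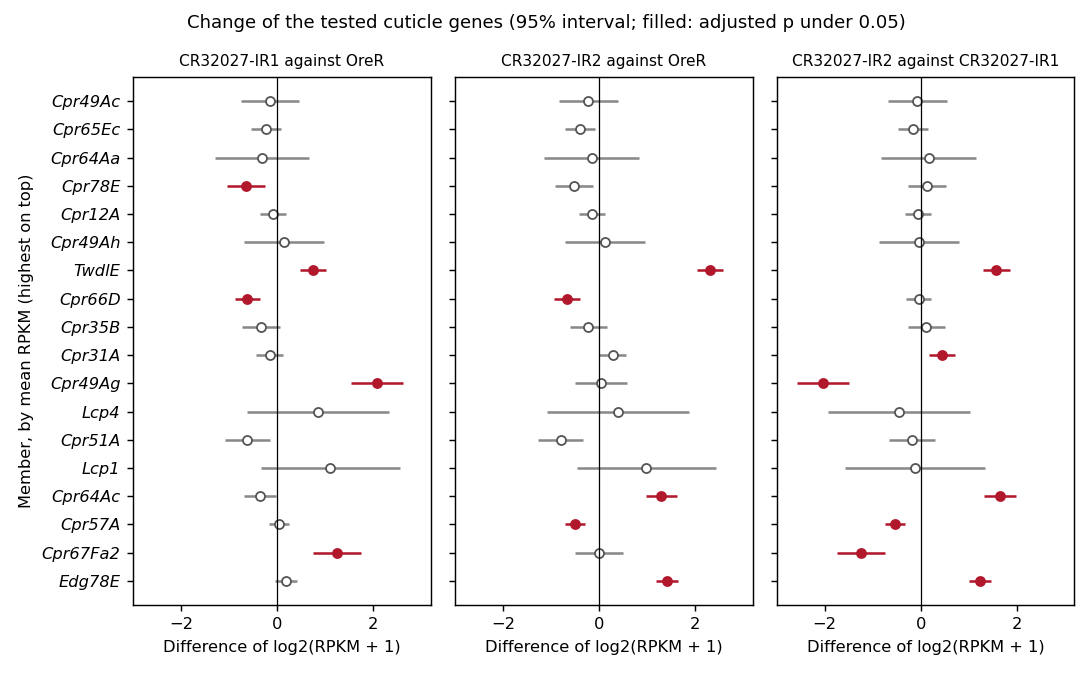
Each point is the difference of mean log2(RPKM + 1) between the genotypes named above a panel, first minus second, for the 18 tested members (vertical axis), with its 95% interval as a line. Filled points have an adjusted p under 0.05, and TwdlE is the member that passed as higher in all 3 panels.

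In CR32027-IR2 TwdlE, Edg78E and Cpr64Ac rose and Cpr57A and Cpr66D fell relative to OreR. These were 3 higher and 2 lower of 18 tested members, while 5.15% of all tested genes were called, 2.93% as higher and 2.22% as lower. The 3 rises were between 4.93-fold and 8.51-fold in mean RPKM, and the falls left 50.5% and 59.2% of the OreR mean. The median log2 difference of the 18 members was -0.07, beside -0.02 for all genes, over members that went both ways, and it ran from -0.10 to 0.01 with 1 library left out, turning positive without CR32027-IR2 replicate 1.

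TwdlE (FBgn0031957; 2L, 7857957 to 7860839, minus strand) encodes a Tweedle protein. It had 6.37, 4.49 and 4.63 RPKM in OreR, 32.3, 27.7 and 28.3 in CR32027-IR2, and 8.73, 10.4 and 8.5 in the CR32027-IR1-labelled libraries. The 3 genotypes did not overlap, with CR32027-IR2 highest and OreR lowest. The CR32027-IR2 mean was 5.70-fold that of OreR, or 2.31 ± 0.12 higher on the log2 scale (SE; limma, adjusted p = 9.78e-06), from 1279 reads over the OreR libraries and 7805 over those of CR32027-IR2. The gene overlaps lectin-28C on the opposite strand, and the sources used here do not say whether reads were counted by strand. The lectin-28C level was 6.83 ± 1.06 RPKM in OreR and 4.44 ± 2.30 in CR32027-IR2, with overlapping libraries. Its part in the TwdlE values was not tested.

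Edg78E (FBgn0000551; 3L, 21296763 to 21297803, minus strand) encodes a pupal cuticle protein first found in imaginal discs treated with ecdysone. Its OreR libraries had 0.453, 0.176 and 0.224 RPKM, those of CR32027-IR2 had 2.53, 2.47 and 2.26, and those labelled CR32027-IR1 had 0.473, 0.416 and 0.473. Every CR32027-IR2 library was above the other 6, while the other 2 genotypes overlapped. The rise was 8.51-fold in the mean, with a log2 change of 1.42 ± 0.10 (limma, adjusted p = 6.05e-05), and rests on 25 reads in OreR against 231. Edg78E shares its cluster with Cpr78Ca, Cpr78Cb and Cpr78Cc, of which the last 2 had no read in any library. Cpr78Ca had 0.0873, 0.180 and 0.254 RPKM in CR32027-IR2 (14 reads) and 0.0349, 0 and 0 in the CR32027-IR1-labelled libraries (1 read). Fitted with no filter on low values, CR32027-IR2 differed from neither those libraries nor OreR in Cpr78Ca (limma, adjusted p = 0.183 and 0.783).

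Cpr64Ac (FBgn0035512; 3L, 4211964 to 4212915, minus strand) belongs to the chitin-binding Cpr family. It stood at 0.537, 0.845 and 0.428 RPKM in OreR, at 3.86, 2.59 and 2.47 in CR32027-IR2, and at 0.242, 0.210 and 0.291 in the CR32027-IR1-labelled libraries. Here too the genotypes did not overlap, with CR32027-IR2 highest and the CR32027-IR1-labelled libraries lowest. In CR32027-IR2 the log2 change from OreR was 1.30 ± 0.15 (4.93-fold; limma, adjusted p = 0.00103; 49 reads against 266). The gap between OreR and the CR32027-IR1-labelled libraries did not pass (-0.35 ± 0.15; adjusted p = 0.141), though it did with a pseudocount of 0.1 RPKM (-0.98; adjusted p = 0.0422). Cpr64Aa, in the same cluster and on the same strand, did not follow Cpr64Ac, with 44.4 ± 9.97 RPKM in OreR and 39.6 ± 7.87 in CR32027-IR2. Both genes lie within CG43367, a gene on the opposite strand with 2.29 ± 0.0772 RPKM in OreR and 2.51 ± 0.0729 in CR32027-IR2.

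Cpr57A (FBgn0034517; 2R, 20548368 to 20550117, minus strand) fell in CR32027-IR2. It measured 1.53, 1.46 and 1.23 RPKM in OreR, 0.571, 0.705 and 0.855 in CR32027-IR2, and 1.43, 1.51 and 1.5 in the CR32027-IR1-labelled libraries. The 3 CR32027-IR2 libraries lay below the other 6. The log2 change from OreR was -0.49 ± 0.09 (50.5% of the mean; limma, adjusted p = 0.0161). This call was lost without CR32027-IR2 replicate 1 or 2 (adjusted p = 0.0591 and 0.0632) and without OreR replicate 1 or 2 (0.0624 and 0.0758). The odorant-binding protein gene Obp57d has the same span and strand in BDGP6 and the same RPKM in all 9 libraries, so these reads cannot be assigned to one or the other.

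Cpr66D (FBgn0052029; 3L, 8640439 to 8643584, plus strand) was lower than OreR in both hairpin genotypes. It had 8.99, 12.0 and 9.17 RPKM in OreR, 6.99, 5.32 and 5.54 in CR32027-IR2, and 5.91, 5.97 and 6.50 in the CR32027-IR1-labelled libraries. The OreR libraries were above the other 6, and the hairpin genotypes overlapped. The log2 change was -0.67 ± 0.12 in CR32027-IR2 (limma, adjusted p = 0.0125), a call lost without CR32027-IR2 replicate 2 (0.0579) or replicate 3 (0.0539). For the CR32027-IR1-labelled libraries it was -0.62 ± 0.12 (61.0% of the mean; adjusted p = 0.00964), a call that array weights ended (0.0966).

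**Figure D3:**
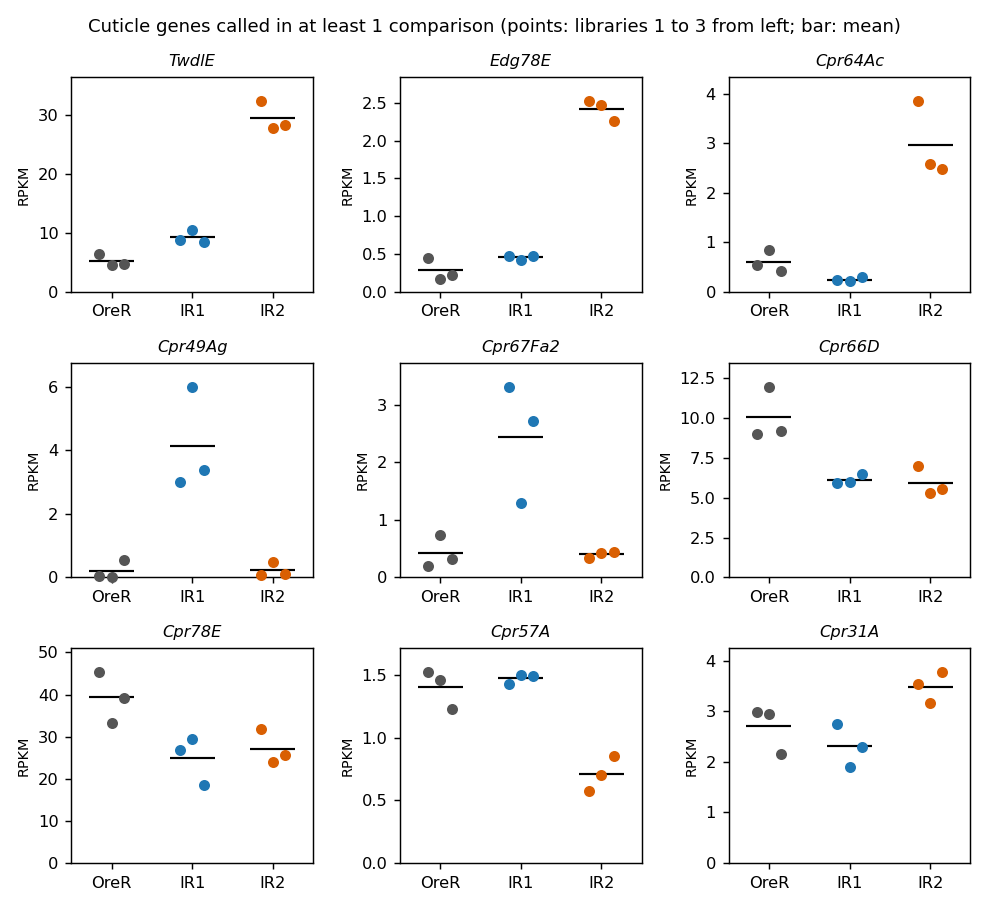
Each panel gives the RPKM (vertical axis, from 0) of 1 of the 9 members called in at least 1 comparison, with a point per library and a bar at the mean of each genotype, where IR1 and IR2 stand for the CR32027-IR1-labelled libraries and CR32027-IR2. TwdlE, Edg78E and Cpr64Ac are highest in CR32027-IR2, Cpr49Ag and Cpr67Fa2 are highest in the CR32027-IR1-labelled libraries, and Cpr66D is highest in OreR.

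In the CR32027-IR1-labelled libraries, Cpr49Ag, Cpr67Fa2 and TwdlE rose and Cpr66D and Cpr78E fell relative to OreR. These were again 3 higher and 2 lower of 18, while 13.7% of all tested genes were called, 6.09% as higher and 7.61% as lower. The median log2 difference of the members was -0.12, beside 0.01 for all genes, and -0.18 to -0.02 with 1 library left out. The TwdlE and Cpr66D calls have the same sign as those in CR32027-IR2, a comparison that shares its controls.

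Cpr49Ag (FBgn0033730; 2R, 12407793 to 12408523, plus strand) is a Cpr gene of the Cpr49A cluster. Its OreR libraries had 0.0563, 0 and 0.542 RPKM, those labelled CR32027-IR1 had 3.01, 6.01 and 3.39, and those of CR32027-IR2 had 0.0785, 0.484 and 0.114. The 3 CR32027-IR1-labelled libraries were above the other 6, which overlapped. The mean ratio to OreR was 20.7, from 14 reads (95% Poisson interval 7.65 to 23.5, for counting error only) against 267, and the log2 change was 2.08 ± 0.24 (limma, adjusted p = 0.00113). Of its neighbours in the cluster, Cpr49Ac was at 72.5 ± 2.01 RPKM in OreR and 69.1 ± 26.8 in the CR32027-IR1-labelled libraries. Cpr49Ah was at 19.2 ± 5.15 and 23.0 ± 12.1 RPKM, with a 95% interval of the log2 difference from -0.69 to 0.98. Cpr49Ae and Cpr49Af were at 0 throughout.

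Cpr67Fa2 (FBgn0036109; 3L, 10891714 to 10892516, plus strand) is a Cpr gene that lies beside its paralog Cpr67Fa1. It stood at 0.196, 0.729 and 0.326 RPKM in OreR, at 3.31, 1.29 and 2.72 in the CR32027-IR1-labelled libraries, and at 0.341, 0.421 and 0.447 in CR32027-IR2. Again the CR32027-IR1-labelled libraries were above the other 6. The mean was 5.85-fold that of OreR, with a log2 change of 1.25 ± 0.22 (limma, adjusted p = 0.00763; 29 reads against 183), and the call was lost with array weights (0.0559). Cpr67Fa1 had 34 reads over all 9 libraries, and the sources used here do not say how reads matching both copies were assigned.

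TwdlE in the CR32027-IR1-labelled libraries was 1.78-fold its OreR mean (log2 change 0.74 ± 0.12; limma, adjusted p = 0.00501). Cpr78E (FBgn0037114; 3L, 21666452 to 21666980, minus strand) had 45.3, 33.3 and 39.3 RPKM in OreR, 26.8, 29.5 and 18.5 in the CR32027-IR1-labelled libraries, and 31.9, 24.0 and 25.6 in CR32027-IR2. All 6 hairpin libraries lay below the 3 OreR libraries. The log2 change was -0.65 ± 0.18 in the CR32027-IR1-labelled libraries (limma, adjusted p = 0.0404) and did not pass in CR32027-IR2 (-0.52 ± 0.18; adjusted p = 0.148). Leave-one-out fits ended this call without CR32027-IR1 replicate 1 (adjusted p = 0.0736) or 3 (0.0760), CR32027-IR2 replicate 2 (0.0538) or 3 (0.0589), or OreR replicate 1 (0.124), 2 (0.0536) or 3 (0.0929).

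The hairpin genotypes were then compared directly, which tests whether their differences from OreR differed. TwdlE, Cpr64Ac, Edg78E and Cpr31A were higher in CR32027-IR2 and Cpr49Ag, Cpr67Fa2 and Cpr57A were lower than in the CR32027-IR1-labelled libraries. These were 4 higher and 3 lower of 18, with 21.9% of all tested genes called, 9.57% as higher and 12.3% as lower. CR32027-IR2 had 12.0-fold the mean level of Cpr64Ac (log2 difference 1.65 ± 0.15; limma, adjusted p = 0.000152), 5.33-fold that of Edg78E (1.23 ± 0.10; 9.37e-05) and 3.19-fold that of TwdlE (1.58 ± 0.12; 6.37e-05). Cpr49Ag differed by -2.04 ± 0.24 (adjusted p = 0.000732), Cpr67Fa2 by -1.24 ± 0.22 (0.00516) and Cpr57A by -0.54 ± 0.09 (0.00428), all on the log2 scale. For Cpr66D no difference was detected, with a log2 difference of -0.04 and a 95% interval of -0.31 to 0.22 (adjusted p = 0.818).

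Cpr31A (2L, 10054213 to 10055935, plus strand), another Cpr gene, was the weakest of these calls. It measured 3.53, 3.16 and 3.78 RPKM in CR32027-IR2, 2.75, 1.90 and 2.30 in the CR32027-IR1-labelled libraries, and 2.99, 2.95 and 2.17 in OreR. The CR32027-IR2 libraries were above the other 6. The difference between the hairpin genotypes was 0.44 ± 0.12 (1.51-fold; limma, adjusted p = 0.0302). It no longer passed without CR32027-IR1 replicate 2 (0.0607) or 3 (0.0623), or CR32027-IR2 replicate 1 (0.0799), 2 (0.0529) or 3 (0.101).

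The remaining 9 tested members were not called in any comparison. Cpr51A (2R, 14512559 to 14515211, minus strand), a Cpr gene, came nearest. It had 2.03, 2.88 and 1.53 RPKM in OreR, 0.616, 0.786 and 0.957 in CR32027-IR2, and 1.17, 0.487 and 1.54 in the CR32027-IR1-labelled libraries. The CR32027-IR2 libraries were below those of OreR, at 36.6% of the mean, while 1 CR32027-IR1-labelled library overlapped OreR. The log2 difference of CR32027-IR2 from OreR was -0.80 ± 0.21 (limma, adjusted p = 0.0671), and it passed without CR32027-IR1 replicate 2 (0.0191) or 3 (0.0464). For the CR32027-IR1-labelled libraries it was -0.62 ± 0.21 (adjusted p = 0.0847), and it passed without CR32027-IR1 replicate 3 (0.0465). Cpr65Ec was also lower in all 3 CR32027-IR2 libraries than in OreR, at 36.1 ± 3.56 against 48.0 ± 5.92 RPKM, and did not pass (-0.40 ± 0.14; adjusted p = 0.162).

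Several abundant members varied more between libraries of one genotype than between genotypes. In the CR32027-IR1-labelled libraries, Cpr64Aa had 42.7, 14.9 and 64.6 RPKM and Cpr49Ah had 22.8, 11.05 and 35.3. In those same libraries Cpr49Ac had 77.3, 90.9 and 39.2 RPKM, so that the library highest for Cpr64Aa and Cpr49Ah was lowest for Cpr49Ac and the reverse. The hemocyte marker sum in these libraries was 17.0, 9.0 and 19.1 RPKM. Of its 8 genes crq, the most abundant, was level at 7.69, 7.55 and 7.81 RPKM, while the other 7 were far lower in replicate 2, such as Hml at 0.650, 0.0597 and 0.800 and NimC1 at 1.86, 0.278 and 1.97. Genes timed by ecdysone also varied between these libraries. Hr3 (1.38, 7.90 and 0.594 RPKM) and Blimp-1 (3.25, 8.21 and 1.39) followed the order of Cpr49Ac. In contrast, ftz-f1 (0.360, 0.170 and 0.557) and EcR (1.68, 1.39 and 1.73) followed the reverse order. In CR32027-IR2, Hr3 (4.72, 4.09 and 3.38 RPKM) did not follow Cpr49Ac (60.9, 49.8 and 78.1), whereas Blimp-1 (4.12, 2.54 and 4.71) did. Neither ftz-f1 (0.255, 0.469 and 0.353) nor EcR (1.39, 1.78 and 1.63) had the reverse order there. The part of the hemocyte markers and of these genes in the spread was not tested. In OreR the 3 values of Cpr49Ac were 74.8, 71.6 and 71.0 RPKM. The 95% interval of the log2 difference between the CR32027-IR1-labelled libraries and OreR was accordingly wide, from -0.77 to 0.46 for Cpr49Ac and from -1.30 to 0.66 for Cpr64Aa. Cpr12A varied less, between 22.6 and 32.5 RPKM over the 9 libraries, with intervals of -0.36 to 0.19 in the CR32027-IR1-labelled libraries and -0.42 to 0.12 in CR32027-IR2.

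**Figure D4:**
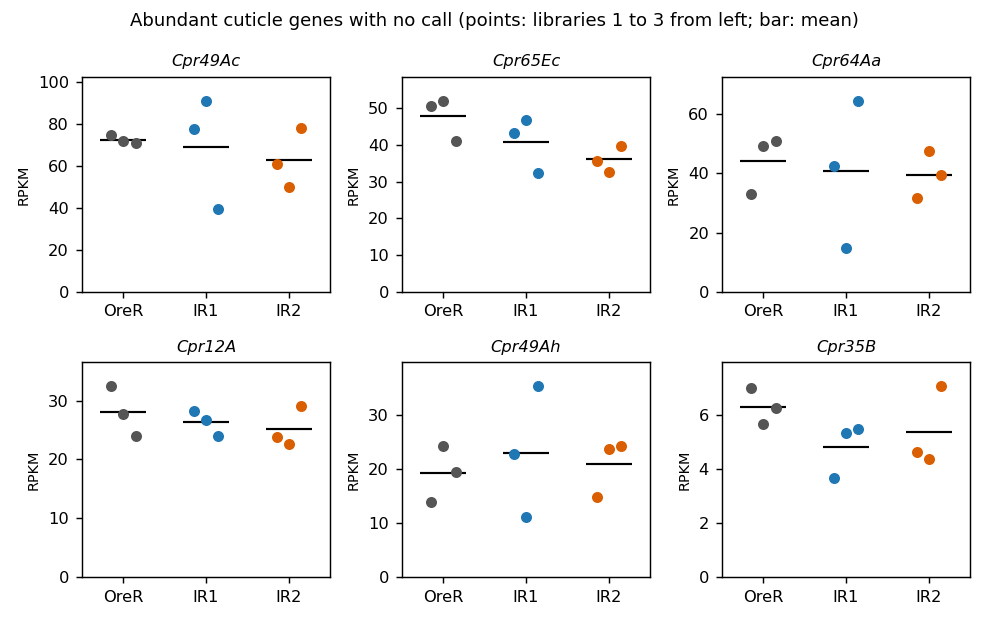
RPKM (vertical axes, from 0) of 6 abundant members without a call, with a point per library and a bar at the mean of each genotype, where IR1 and IR2 stand for the CR32027-IR1-labelled libraries and CR32027-IR2. In the CR32027-IR1-labelled libraries, Cpr64Aa ranged from 14.9 to 64.6 RPKM and Cpr49Ac from 39.2 to 90.9 RPKM, in opposite order.

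The larval cuticle genes Lcp1, Lcp2, Lcp3 and Lcp4, which form a cluster on 2R (8430115 to 8438495) and are known from the epidermis of the third instar larva, were high in 2 libraries only. Lcp4 had 0.426, 0.275 and 7.35 RPKM in the CR32027-IR1-labelled libraries, 0.129, 0.637 and 2.21 in those of CR32027-IR2, and 0.232, 0.388 and 0.515 in OreR. Lcp1 had 0.491, 0.427 and 5.45 RPKM, then 0.292, 0.541 and 4.38, and then 0, 0.195 and 0.155 in the same order. Replicate 3 of both hairpin genotypes thus stood apart from the other 7 libraries, in which Lcp4 did not exceed 0.637 RPKM and Lcp1 did not exceed 0.541 RPKM. Lcp2 was likewise at 2.80 and 2.66 RPKM in these 2 libraries and at 0.422 or less in the others. Lcp3 had 0.587 and 1.57 RPKM there and at most 0.344 in the others.

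Neither Lcp1 nor Lcp4 passed in any comparison, with log2 differences from OreR of 1.1 ± 0.64 and 0.85 ± 0.65 in the CR32027-IR1-labelled libraries (limma, adjusted p = 0.286 and 0.425). In CR32027-IR2 they were 0.99 ± 0.64 and 0.40 ± 0.65 (adjusted p = 0.481 and 0.826). The 6 fat body markers, none at a mean of 1 RPKM, were each highest in the same 2 libraries. The margin was small for Adh, with at least 0.0276 RPKM there and at most 0.0245 in the others, and for Fbp2 (0.450 and 0.341). The sum of the 6 markers was 2.73 RPKM in CR32027-IR1 replicate 3 and 3.19 in CR32027-IR2 replicate 3. The larval serum protein gene Lsp1beta led it, at 1.09 and 1.42 RPKM. In the other 4 hairpin libraries the sum was 0.221 to 1.12 RPKM, and in OreR it was 0.118 to 0.622 RPKM, with 0 of the 6 markers at 0 in all libraries. Their part in the Lcp values was not tested. Lcp1 and Lcp2 are close copies, so reads of the pair may have been shared between them.

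**Figure D5:**
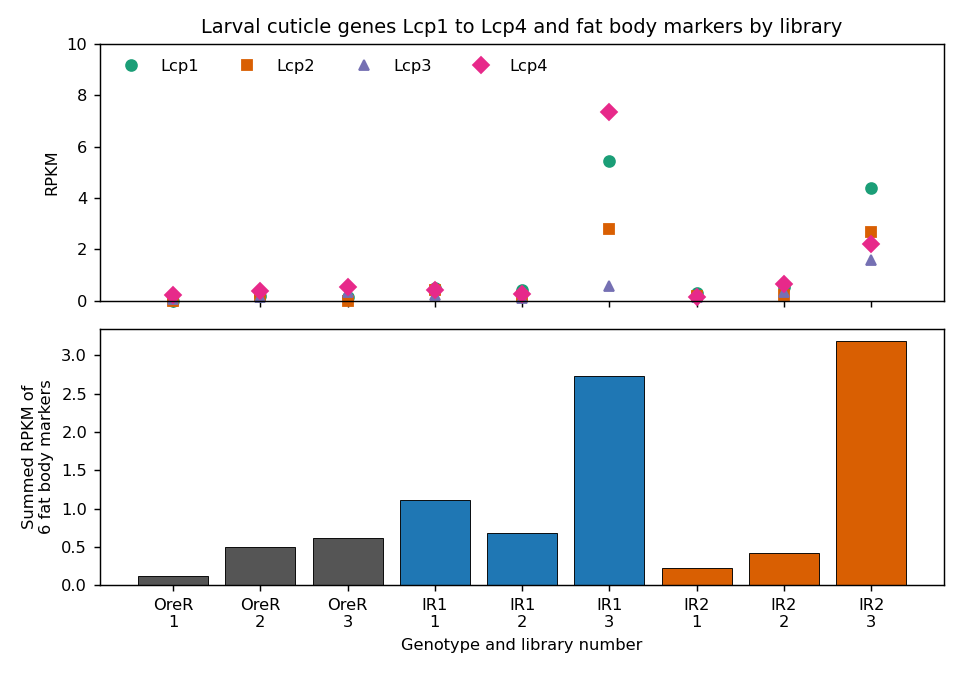
The upper panel gives the RPKM of Lcp1 to Lcp4 in each of the 9 libraries and the lower panel the summed RPKM of 6 fat body markers, where IR1 and IR2 stand for the CR32027-IR1-labelled libraries and CR32027-IR2. Both are highest in library 3 of each hairpin genotype, where Lcp4 has 7.35 and 2.21 RPKM and the marker sum is 2.73 and 3.19 RPKM.

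Leaving out both of these libraries, an alternative chosen after the data were seen, kept the rises of TwdlE, Edg78E and Cpr64Ac in CR32027-IR2 and of Cpr49Ag, Cpr67Fa2 and TwdlE in the CR32027-IR1-labelled libraries. It ended the calls of Cpr66D in CR32027-IR2 (adjusted p = 0.0655), of Cpr78E in the CR32027-IR1-labelled libraries (0.101) and of Cpr31A between the hairpin genotypes (0.151). It also added a call, since Cpr49Ac then passed as lower in CR32027-IR2 than in the CR32027-IR1-labelled libraries.

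Among the 18 tested members the libraries of 2 genotypes did not overlap for 8 in the CR32027-IR1-labelled libraries against OreR (30.9% of all tested genes), for 10 in CR32027-IR2 against OreR (28.1%) and for 7 between the hairpin genotypes (39.3%). Among the 69 members above 0 and under 1 RPKM this held for 2, 6 and 10, and among the 4999 genes of that range for 13.0%, 13.4% and 14.1%. The low members thus separated at or below the share of other low genes, or close to it.

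The low members that separated by the largest amounts were Lcp9, Cpr97Ea, Cpr100A, TwdlV, TwdlW and TwdlU, which are given as values. Cpr97Ea had 0.383, 0.538 and 0.455 RPKM in CR32027-IR2, 0.896, 0.740 and 0.539 in OreR and 1.13, 1.2 and 0.774 in the CR32027-IR1-labelled libraries. Cpr100A had 0.0658, 0.0203 and 0.192 RPKM in CR32027-IR2, 0.614, 0.308 and 0.298 in OreR and 0.948, 0.380 and 0.517 in the CR32027-IR1-labelled libraries. Both Cpr genes were thus lowest in CR32027-IR2, on 13 reads for Cpr100A and 192 for Cpr97Ea. Lcp9 had 0.0818, 0.303 and 0.238 RPKM in CR32027-IR2 and 0.686, 0.398 and 1.29 in the CR32027-IR1-labelled libraries, from 6 and 25 reads.

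Among the low Tweedle genes, TwdlV had 0.193, 0.269 and 0.250 RPKM in OreR against 0.0403, 0.0817 and 0.0377 in the CR32027-IR1-labelled libraries and 0.101, 0 and 0 in CR32027-IR2. It rested on 17, 4 and 3 reads, with OreR above the other 6 libraries. TwdlU, annotated as a pseudogene in the same cluster, had 0.248, 0.384 and 0.397 RPKM in OreR and 0.172, 0.175 and 0.177 in the CR32027-IR1-labelled libraries. TwdlW went the other way between the hairpin genotypes, with 0.182, 0.366 and 0.0996 RPKM in CR32027-IR2 and 0.0273, 0.0832 and 0.0256 in the CR32027-IR1-labelled libraries, from 24 and 5 reads. With no filter on low values, which brings all 87 detected members into the fit, TwdlV passed as lower in both hairpin genotypes (limma, adjusted p = 0.0199 and 0.0191). Cpr97Ea (0.0260) and Cpr100A (0.0446) then passed as lower in CR32027-IR2 than in the CR32027-IR1-labelled libraries. Cpr92A, named after its values were seen, then passed as higher in CR32027-IR2 than in OreR (0.00301), on 18 reads against 3.

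Genes that make, modify or harden cuticle alongside the structural proteins were counted in the same fit. Beside each count against OreR stand the shares of all tested genes called, 13.7% in the CR32027-IR1-labelled libraries and 5.15% in CR32027-IR2. Of 14 tested genes of chitin synthesis, deacetylation and turnover, 1 rose in CR32027-IR2. This was serp, a secreted chitin deacetylase of the trachea and epidermis, at 16.6 ± 2.37 RPKM in OreR and 36.4 ± 2.52 in CR32027-IR2 (limma, adjusted p = 0.000974). With voom on the recovered reads 3 genes of this list passed, all higher, the others being verm, a second deacetylase gene (0.0356, against 0.0525 on RPKM), and the chitinase gene Cht6 (0.00949, against 0.0536). In the CR32027-IR1-labelled libraries the chitinase gene Cht2 fell from 49.6 ± 1.27 to 38.2 ± 2.90 RPKM (0.00339), and mmy, which makes the UDP-N-acetylglucosamine that chitin is built from, and rtv rose. The mmy call (0.0376) held when the library left out was number 2 of CR32027-IR1 or number 1 of either CR32027-IR2 or OreR, and was lost without any of the other 6 (highest 0.129). The rtv call (0.0197) was lost without OreR replicate 1 or 2 (highest 0.0782). The median log2 difference of this list was 0.02 in the CR32027-IR1-labelled libraries and 0.05 in CR32027-IR2.

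Of 6 other chitin-binding or extracellular matrix genes, 3 fell in the CR32027-IR1-labelled libraries and 0 passed in CR32027-IR2 (limma; 3 had an unadjusted p under 0.05, and voom on the recovered reads called 0). Of all tested genes, 13.7% were called in the CR32027-IR1-labelled libraries, 7.61% as lower, and 5.15% in CR32027-IR2. In the CR32027-IR1-labelled libraries the chitin-binding protein gene Gasp went from 17.1 ± 2.28 to 11.1 ± 0.263 RPKM (limma, adjusted p = 0.00423) and obst-A, another, from 66.1 ± 2.05 to 53.4 ± 2.58 (0.00352). The third was dpy, a giant matrix protein that anchors epidermis to cuticle (0.0406), whose call held when number 2 of CR32027-IR1 or number 1 of OreR was left out and was lost without any of the other 7 libraries (highest 0.125). A further list held genes of apical matrix proteins, most of them with a zona pellucida domain, and mas, which has none. Of its 6 tested genes, mey and nyo rose in CR32027-IR2 and qsm fell in the CR32027-IR1-labelled libraries. These 3 calls (0.0131, 0.0446 and 0.0279) were lost without some libraries: mey without number 3 of CR32027-IR2 or number 1 or 2 of OreR (highest 0.0611), and qsm without number 1 of CR32027-IR1 or number 2 or 3 of OreR (highest 0.0946). The nyo call held when number 2 or 3 of CR32027-IR1 or number 1 of CR32027-IR2 was left out, and was lost without any of the other 6 (highest 0.161). With voom on the recovered reads neo, another zona pellucida gene, also passed as lower in the CR32027-IR1-labelled libraries (0.0388, against 0.0510 on RPKM).

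For the lists that follow, the shares of all tested genes called against OreR were again 13.7% in the CR32027-IR1-labelled libraries and 5.15% in CR32027-IR2. Of 5 tested genes of tanning and pigmentation, Ddc, dopa decarboxylase of the hardening pathway, rose in CR32027-IR2 from 0.417 ± 0.207 to 5.16 ± 0.517 RPKM (limma, adjusted p = 0.000154). In the CR32027-IR1-labelled libraries only yellow-c passed, as higher (0.0218), and not without number 1 of CR32027-IR1 or number 1 or 2 of OreR (highest 0.0803). Of 16 ecdysone-timed genes, 3 rose in CR32027-IR2 and 0 passed in the CR32027-IR1-labelled libraries (limma; 1 had an unadjusted p under 0.05, and voom on the recovered reads called 1, Ldh, as lower, at 0.0463). Cyp18a1, which inactivates ecdysone, had 0.793 ± 0.0798 RPKM in OreR and 3.56 ± 0.632 in CR32027-IR2 (adjusted p = 0.000154), and ImpL2, an insulin-binding protein gene, and Ldh, lactate dehydrogenase, had adjusted p = 6.05e-05 and 0.000399. EcR, the ecdysone receptor gene, was at 1.64 ± 0.191 and 1.60 ± 0.195 RPKM in the same groups. Of 8 epidermal and wound regulators, Jra and kay (the fly Jun and Fos) and puc, a phosphatase of the JNK pathway, rose in CR32027-IR2 (adjusted p = 0.00126, 0.00772 and 0.00210), and grh, an epidermal transcription factor with targets in cuticle formation, was at 10.7 ± 0.151 RPKM in OreR and 10.6 ± 0.391 in CR32027-IR2. In the CR32027-IR1-labelled libraries Jra alone of these passed, as higher (0.0350), which held only when number 2 of CR32027-IR1 or number 3 of OreR was left out (highest otherwise 0.123), while voom on the recovered reads called kay there too (0.0280, against 0.10 on RPKM).

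Other cell types, among them the cuticle-lined trachea, could contribute to these values. The 5 matched trachea markers, all over 1 RPKM, summed to 105 to 152 RPKM in OreR, 124 to 185 in the CR32027-IR1-labelled libraries and 195 to 226 in CR32027-IR2. Thus in CR32027-IR2 the sum was above OreR, as were TwdlE, Edg78E and Cpr64Ac, through the matrix genes serp, verm and tnc. In the CR32027-IR1-labelled libraries the sum overlapped that of OreR, while the Cpr64Ac values lay below those of OreR. Gasp, another of these markers, was not higher in CR32027-IR2, at 15.1 ± 1.06 RPKM beside 17.1 ± 2.28 in OreR. The tracheal transcription factor gene trh was not high in CR32027-IR2, with 3.77, 3.57 and 3.62 RPKM beside 5.0, 5.12 and 4.48 in OreR. Markers of neurons and glia, 3 of 5 over 1 RPKM, summed to 29.8 to 32.6 RPKM in OreR and to 39.4 to 43.7 in the hairpin libraries. That gap lay in nrv2 (25.3 to 27.6 RPKM in OreR, 30.9 to 38.0 in the hairpin libraries) and in moody (0.924 to 1.5 in OreR, 5.67 to 6.80 in CR32027-IR2). The neuronal gene elav stayed between 3.2 and 3.70 RPKM over the 9 libraries, nSyb reached at most 0.10 RPKM, and repo at most 0.0256. Peripodial markers, 2 of 4 over 1 RPKM, gave 8.76 to 11.3 RPKM over all libraries, muscle markers 12.2 to 14.9 and hemocyte markers 9.0 to 21.8. The part of these cells in the changes of the cuticle genes was not tested.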

How the data were processed

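Per the labels' protocols, stranded mRNA libraries were prepared from 100 ng of total RNA. CASAVA 1.8.2, TopHat2 and dm3 appear in the submitters' processing notes, with no role given. The sources used here do not name the read counter, its use of strand or its annotation. One table with RPKM per gene was deposited. Low values were whole multiples of 1 read, which gave the depth and the reads behind each gene: whole reads in all libraries, within 0.01 read, were found for 7495 of 7506 genes tried. The length behind them equalled the BDGP6 gene span, introns included, for 56 members and the exon length for 0. Symbols (15002 of 15682 genes matched) and coordinates came from the BDGP6 annotation, and no coordinate was converted.

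Groups came from the sample labels. An intensity-trend model of limma 3.58.1 (R 4.3.3) took log2(RPKM + 1) of all 9 libraries for the 7437 genes averaging 1 RPKM or more (6 residual degrees of freedom). P-values were adjusted over all these genes by the Benjamini-Hochberg method. The log2(RPKM + 1) scale understates changes of low genes. Ratios of means are of RPKM. Members, lists, tests and alternatives were chosen with earlier results of these data known. Named by rule were members called in any comparison, the 15 with the highest mean, the 6 low members with the largest non-overlapping differences, and up to 4 called genes of each companion list. Other genes were named outside this rule. Among them were low or silent members such as Lcp2, Lcp3, Edg91, Cpr64Ab, Cpr67Fa1 and Cpr92A. So were verm, Hr3, Blimp-1, ftz-f1, EcR and grh, which were not called in the main fit. Alternatives covered the pseudocount, filter, scaling, trend, genotypes fitted, array weights, a replicate block, recovered reads and each left-out library. The fit was tested on simulated data. Python 3.11.15, pandas 2.3.3 and matplotlib 3.10.9 were also used.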

Additional observations from a re-analysis of the deposited data

How the results depend on the processing

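None of the 17 calls changed sign under any alternative tried. Of the 37 differences of tested members that were not called, 19 changed sign in at least 1 leave-one-out fit, among them Lcp4 against OreR (to -0.03 and -0.01) and, in the CR32027-IR1-labelled libraries, Cpr49Ac (to 0.21) and Cpr64Aa (to 0.26). The calls of TwdlE, Edg78E, Cpr64Ac and Cpr49Ag against OreR and between the hairpin genotypes passed under every alternative that tested them, and 13 of the 17 calls passed in all leave-one-out fits. All alternatives reuse the same libraries, and Edg78E, Cpr64Ac and Cpr49Ag had passed the filter only through the genotype where they were high. With array weights, Cpr67Fa2 (adjusted p = 0.0559), Cpr66D (0.0966) and Cpr78E (0.163) lost their calls in the CR32027-IR1-labelled libraries, as did Cpr31A between the hairpin genotypes (0.0555), and Cpr51A (0.00878) and Cpr65Ec (0.0247) passed as lower in CR32027-IR2. With no filter, Cpr78E (0.0927) and Cpr31A (0.0673) lost theirs, and Cpr78E also with only the 2 genotypes fitted (0.0683), where Cpr51A passed in CR32027-IR2 (0.0305). The number of members lower in the CR32027-IR1-labelled libraries was 2, then 0 with array weights, 1 with only the 2 genotypes fitted, 1 without replicate 3 of both hairpin genotypes, and 1 to 2 with 1 library left out. The number higher there was 1 at a minimum of 5 RPKM, which admits 9 members. In CR32027-IR2 the number lower was 4 with array weights, 1 at a minimum of 5 RPKM, 1 without replicate 3 of both hairpin genotypes, and 0 to 3 with 1 library left out, and the number higher was 1 at 5 RPKM. Between the hairpin genotypes it was 1 higher and 0 lower at 5 RPKM, and 5 lower with no filter. The cause of these shifts was not tested, apart from the smaller number of members at 5 RPKM.

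Over all tested genes, same-numbered libraries deviated together in 1 of 9 pairs (correlations -0.237 to 0.116, over 0.1 in that pair). Differently numbered libraries of different genotypes had correlations of -0.188 to 0.267. Such a correlation would miss a pairing that touches few genes, so it does not settle whether the numbers pair the libraries. Lcp1 to Lcp4 were high in replicate 3 of both hairpin genotypes. With a replicate block there were 3 higher and 2 lower in the CR32027-IR1-labelled libraries, 3 higher and 1 lower in CR32027-IR2 (Cpr57A, 0.0653) and 3 higher and 3 lower between the hairpin genotypes (Cpr31A, 0.0503). Of all genes, calls against OreR numbered 453 higher and 566 lower in the CR32027-IR1-labelled libraries and 218 and 165 in CR32027-IR2. They became 110 and 261, and 449 and 523, with array weights, 237 and 375, and 270 and 257, with only 2 genotypes, and 219 and 346, and 137 and 85, with the block.

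The log2 change of CR32027 in CR32027-IR2 was -1.10 to -0.79 with 1 library left out, and without OreR replicate 2 it was -0.885 and did not pass (0.0778). Counting as detected only members with a mean of at least 0.1 RPKM gave 36, not 87. Without their most abundant member the median sums were 190, 171 and 203 RPKM for Cpr in CR32027-IR1, CR32027-IR2 and OreR, 1.67, 1.48 and 2.06 for Twdl, and 1.24 for Lcp in OreR. Depth limits the low members: 51 of the 69 were under 0.1 RPKM.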
